A study of Mus musculus with 42 samples.

Results

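The nuclear genes of oxidative phosphorylation encode most subunits of the 5 enzyme complexes of the inner mitochondrial membrane and their mobile carrier cytochrome c. Members were the protein-coding genes whose symbols start with Nduf, Uqcr, Cox4 to Cox8 or Atp5, together with *Sdha*, *Sdhb*, *Sdhc*, *Sdhd* and *Cycs*. Assembly factors of the Ndufaf series and pseudogenes were left out. This gave 90 of the 56953 genes in the count table, namely, grouped by symbol, 40 of complex I, 4 of complex II, 8 of complex III, 18 of complex IV, 19 of ATP synthase and cytochrome c itself. The 90 rows carried 89 symbols, because *Atp5po* was listed under a pair of identifiers, and the second had a count of 0 in every library. In all, 85 members passed the filter on low counts in every fit. The other 5 were that second *Atp5po* row, *Cox7b2*, *Cox8b*, *Cox8c* and *Ndufb11b*.

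Complex I (most Nduf subunits) and complex II (succinate dehydrogenase) pass electrons to ubiquinone, complex III (the Uqcr subunits) passes them to cytochrome c, and complex IV (cytochrome c oxidase) passes them to oxygen. ATP synthase uses the resulting proton gradient to make ATP. The mitochondrial genome encodes further subunits of every complex except complex II. Several complex IV subunits exist as a broadly expressed isoform and an isoform restricted to some tissues. *Cox6a2*, *Cox7a1* and *Cox8b* are the isoforms of striated muscle, which take the place of *Cox6a1*, *Cox7a2* and *Cox8a* in the maturing heart and in skeletal muscle.

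The libraries came from heart fields of 21 mouse embryos, left and right sides apart, at E8.5i, a stage of embryonic day 8.5 at which the direction of heart looping can be seen. There were 5 wild types (*Ccdc40*+/+, 4 males and 1 female), 11 homozygous mutants with rightward looping (*Ccdc40*lnks/lnks, 6 males and 5 females) and 5 homozygous mutants with inverted looping (*Ccdc40*lnks/lnks, 3 males and 2 females). The line was kept on a background that the methods of the study spell C56Bl6J, the allele is carried by the whole embryo, no agent was given, and each library held 1 side of 1 embryo. *Ccdc40* is needed for the beat of motile cilia, and its lnks allele is a point mutation that introduces an early stop. Each sample was mainly dorsal pericardial wall, where heart progenitors lie. The tube itself, the head and the dorsal and caudal tissue were not meant to be included. The labels give looping direction and not the laterality of other organs, and by the study's own clustering the mutants with rightward looping hold embryos of both situs solitus and heterotaxy, which are pooled here.

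Library totals ranged from 36073684 to 62970327 counts. *Ccdc40* had 15.2 to 26.5 CPM (a library's counts scaled to 1e+06) in wild types, 8.83 to 14.6 CPM in mutants with rightward looping and 9.99 to 14.8 CPM in mutants with inverted looping, so that every mutant library was below every wild-type library. Markers of heart progenitors were present in all 42 libraries, as *Isl1*, a transcription factor of these cells, had 51.8 to 139 CPM and *Mef2c* had 76.2 to 247 CPM. Genes of the heart tube's contractile apparatus were present in all 42 as well, although the tube had been removed. *Actc1*, the cardiac alpha actin, ranged from 33.3 to 1306 CPM, and *Myh6*, a cardiac myosin heavy chain, from 7.07 to 1507 CPM. In bulk tissue, fewer cells of a type and less RNA per cell cannot be told apart. Replicates were separate embryos of 1 group.

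The promoters of both detected muscle isoforms and of their broadly expressed partners are shown because the muscle isoforms, and not their partners, were called between the sides in mutants with inverted looping. The difference between isoform and partner was not tested, and no member was called between the sides in the other groups. Each sequence is the 100 bases before the annotated start of the canonical transcript on GRCm39, 5′ to 3′ on the strand of the gene. Capitals mark TAAAAATA (a core site of the muscle factor MEF2) or GGGCGG (the GC box), read on either strand.
*Cox6a2*, chr7:127805560-127805659, minus strand: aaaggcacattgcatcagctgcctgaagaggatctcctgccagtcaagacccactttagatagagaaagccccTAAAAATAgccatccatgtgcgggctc
*Cox7a1*, chr7:29883469-29883568, plus strand: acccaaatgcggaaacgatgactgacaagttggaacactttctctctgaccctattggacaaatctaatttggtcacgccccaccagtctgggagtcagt
*Cox6a1*, chr5:115487041-115487140, minus strand: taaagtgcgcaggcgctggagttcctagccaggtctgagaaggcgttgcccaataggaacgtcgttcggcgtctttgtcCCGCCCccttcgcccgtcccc
*Cox7a2*, chr9:79667163-79667262, minus strand: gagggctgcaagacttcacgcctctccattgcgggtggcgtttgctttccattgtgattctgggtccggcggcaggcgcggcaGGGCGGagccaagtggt

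Within 250 bases before the start, the letters TAAAAATA were found in 2.22% of the 90 member promoters and in 2.09% of 21664 protein-coding promoters. The 2 members with these letters were *Cox6a2* and *Atp5mf*. The core of the NRF1 site, GCGCATGC, was found in 7 members, *Atp5mc2*, *Atp5mg*, *Cox6a1*, *Cox8c*, *Cycs*, *Ndufa13* and *Ndufa6*, which is 7.78% against 2.66% of all promoters. NRF1 is a transcription factor of nuclear genes for mitochondrial proteins. The ETS element CCGGAAG was found in 6.67% of member promoters against 6.86% of all, and the GC box GGGCGG in 31.1% against 36.4%. The ERR element TCAAGGTCA and the YY1 element AAGATGGCG were found in none of the members, against 0.434% and 0.549% of all promoters. Both strands were read, and none of these motifs contains another. A match is a string of letters and not a measured binding site.

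Members together took a narrow share of every library. They made up 1.25% to 1.45% of counts in wild types, 1.28% to 1.48% in mutants with rightward looping and 1.27% to 1.53% in mutants with inverted looping, with medians of 1.33%, 1.34% and 1.36%. The 3 ranges overlapped over most of their length. Single members were also steady from library to library. Over the 42 libraries the coefficient of variation of CPM had a median of 7.06% among the 85 members, and 76 of the 85 were below 10%. It was above 20% in 4 members, *Cox6a2* (70.5%), *Cox7a1* (38.5%), *Ndufa4l2* (34.8%) and *Cox6b2* (23.8%).

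Levels per length spanned a wide range. The main scale here is CPM per kb of the union of all annotated exons, and a second scale divides by the length of the canonical transcript. *Atp5f1b*, the catalytic beta subunit of ATP synthase, had a mean of 1137 CPM, and it was the highest member of ATP synthase on both scales, at 246 CPM per kb of union and 590 CPM per kb of canonical transcript. Its level was 1132 ± 79.4 CPM on the left against 1137 ± 95.2 CPM on the right of wild types (SD, n = 5 embryos). Per kb of union, the highest members of the other complexes were *Ndufa2* at 194, *Sdhd* at 100.4, *Uqcrb* at 137 and *Cox6a1* at 238, and the lowest were *Ndufb2* at 3.05, *Sdhc* at 33.1, *Uqcr11* at 34.3, *Cox6b2* at 2.69 and *Atp5mg* at 3.50. Cytochrome c, *Cycs*, had 48.5 CPM per kb of union and 59.9 per kb of canonical transcript.

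The order of the complexes depended on the length used. Per kb of union the medians were 26.2 for complex I, 40.9 for complex II, 65.7 for complex III, 27.4 for complex IV and 38.2 for ATP synthase. Per kb of canonical transcript they were 94.3, 100.0, 97.9, 180 and 156. Complex IV thus moved from near the lowest median to the highest. On the canonical scale *Ndufa4*, which is placed here by its symbol but is known as a subunit of complex IV, had 428 CPM per kb. The next Nduf member was *Ndufb7* at 245, and the highest members of complexes II, III and IV were *Sdhd* at 204, *Uqcr10* at 328 and *Cox4i1* at 438 CPM per kb. *Cox6a2* was the lowest member of complex IV that passed the filter, at 2.92.

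**Figure D1:**
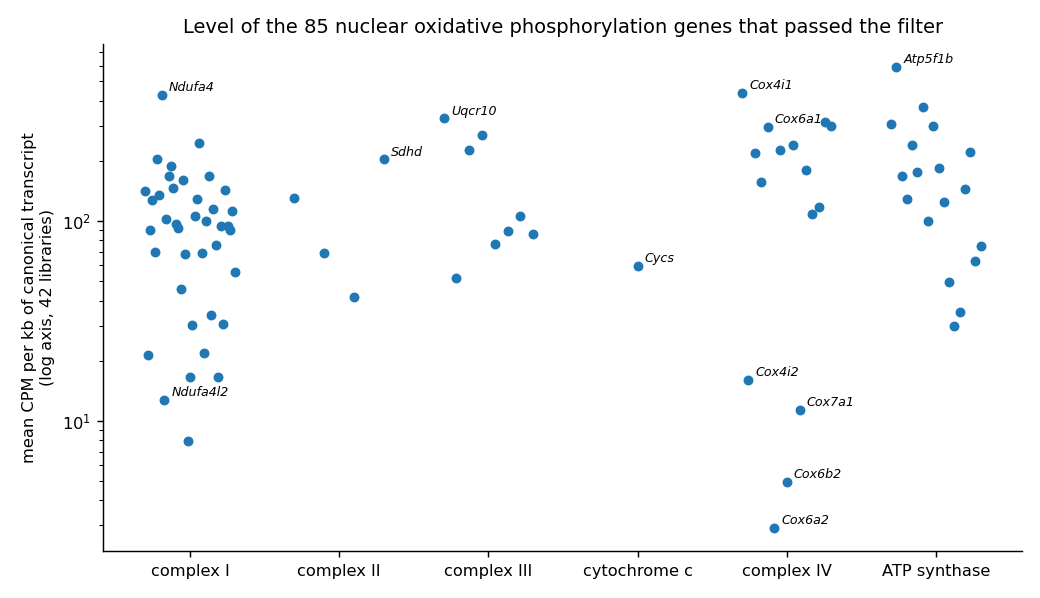
Mean level of each of the 85 members over 42 libraries, in CPM per kb of canonical transcript on a log axis, by complex. Each point is 1 gene. Members span from *Cox6a2*, the lowest at 2.92 CPM per kb, to *Atp5f1b*, the highest at 590. Genes are placed by symbol, so that *Ndufa4* and *Ndufa4l2* stand with complex I.

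Complex II is the entry point of electrons from succinate. *Sdha*, its flavoprotein, had a mean of 402 CPM over all libraries. In mutants with inverted looping, *Sdha* had 376, 382, 396, 382 and 394 CPM on the left against 391, 440, 396, 415 and 439 CPM on the right of the same embryos, in the order 2_7, 4_6, 10_3, 18_2 and 32_2. The right was the higher side in 5 of 5, in 10_3 by less than 1 CPM. *Sdhb*, *Sdhc* and *Sdhd* had mean levels within each group and side of 273 to 283, 132 to 136 and 252 to 264 CPM. *Cycs* had 186 to 198 CPM measured in the same way.

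In both isoform pairs the broadly expressed isoform was the higher one in every group and on both sides. *Cox6a1* had a mean of 170 CPM, *Cox7a2* of 147 CPM and *Cox4i1* of 343 CPM over the 42 libraries. *Cox6a2* had 1.98 CPM and *Cox7a1* had 5.03 CPM. Per kb of canonical transcript, *Cox6a2* made up 0.880% ± 0.573 of the sum of *Cox6a2* and *Cox6a1* on the left of wild types and 0.824% ± 0.459 on the right (SD, n = 5). *Cox7a1* made up 5.58% ± 2.15 and 5.50% ± 1.80 of its sum with *Cox7a2* there. In mutants with inverted looping the shares were 0.564% ± 0.289 on the left and 1.63% ± 0.735 on the right for *Cox6a2*, and 4.59% ± 0.966 and 8.02% ± 2.11 for *Cox7a1* (SD, n = 5). Mutants with rightward looping lay between, with 0.809% ± 0.556 and 1.03% ± 0.571 for *Cox6a2* and 5.38% ± 1.54 and 6.33% ± 2.11 for *Cox7a1* (SD, n = 11). The share of *Cox7a1* depended on the length used, because the union of exons of *Cox7a2* has 5914 bases against 814 in its canonical transcript. Per kb of union, *Cox7a1* made up 23.5% ± 7.23 on the left and 23.3% ± 6.83 on the right of wild types, and 20.3% ± 3.47 and 31.3% ± 6.10 in mutants with inverted looping (SD, n = 5). *Cox6a2* had 1.09% ± 0.707 and 1.02% ± 0.567 in wild types on that scale, and 0.698% ± 0.357 and 2.01% ± 0.904 in mutants with inverted looping.

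The striated muscle isoform *Cox8b* was at the limit of detection. It had 0 counts in all 10 libraries of wild types, where a count of 0 allows up to 3 counts in each, and at most 4 counts in any library of the mutants. *Cox7b2* and *Cox8c*, isoforms known from testis, reached at most 5 and 1 counts, and *Ndufb11b*, a copy of *Ndufb11*, reached at most 2. Such limits cover counting error only. *Cox4i2*, the isoform of lung and of low oxygen, had a mean of 12.2 CPM, *Ndufa4l2*, a relative of *Ndufa4* that is induced by low oxygen in other cells, had 12.3 CPM, and *Cox6b2*, an isoform of testis, had 2.99 CPM.

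In wild types, no member was called between right and left. *Cox6a2* had 1.04, 3.42, 1.98, 1.20 and 0.788 CPM on the left against 1.21, 2.37, 0.265, 2.07 and 2.17 CPM on the right of the embryos 7_1, 8_1, 10_1, 17_7 and 22_4. The right was higher in 3 of 5, and the sides overlapped. *Cox7a1* had 3.35, 6.79, 5.87, 3.53 and 3.07 CPM on the left against 5.54, 4.85, 2.10, 4.83 and 5.49 CPM on the right. It was higher on the right in the same 3 embryos. The mean log2 ratio of right over left per embryo was -0.17 ± 1.59 for *Cox6a2* and 0.0097 ± 0.971 for *Cox7a1* (SD, n = 5; two-sided exact sign-flip p = 0.875 and 1.0). The fitted direction in wild types turned without some embryos. For *Cox6a2* the log2 fold change of right over left was -0.457 without 22_4 and 0.456 without 10_1, and for *Cox7a1* it was -0.185 and 0.379.

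Of the 85 members, 0 were called in wild types by edgeR's quasi-likelihood test at an adjusted p of 0.05, as were 0% of all 23182 genes tested, and DESeq2 also called 0 members. At an unadjusted p below 0.05, edgeR listed 1 member, *Ndufa4l2*, with a log2 fold change of 0.47 (SE 0.12, unadjusted p = 0.00468, adjusted p = 1.0). *Ndufa4l2* had 10.9, 10.2, 6.76, 13.6 and 13.6 CPM on the left against 16.5, 13.2, 10.5, 22.5 and 14.0 CPM on the right. It was higher on the right in 5 of 5 embryos, with an exact sign-flip p of 0.063, the smallest that 5 embryos allow. The log2 fold changes of the 85 members had a median of 0.0089 and were positive in 53, beside a median of 0.0020 over all genes. Without the embryo 10_1 the median was -0.022 and 25 were positive.

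In mutants with rightward looping, likewise, 0 of 85 members were called, where 0.0263% of 22795 genes were. DESeq2 called 0 members. *Ndufa4l2* and *Cox4i2* were the 2 members at an unadjusted p below 0.05. *Ndufa4l2* had a lowest, median and highest level of 5.94, 9.91 and 18.6 CPM on the left against 8.12, 12.9 and 26.1 CPM on the right, and it was higher on the right in 9 of 11. Its log2 fold change was 0.24 (SE 0.075, edgeR, unadjusted p = 0.0061, adjusted p = 1.0). *Cox4i2* had a log2 fold change of 0.20 (SE 0.077, unadjusted p = 0.0215, adjusted p = 1.0) and was higher on the right in 8 of 11.

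The muscle isoforms varied widely within the group with rightward looping. *Cox6a2* had a lowest, median and highest level of 0.208, 1.37 and 4.38 CPM on the left against 0.0661, 1.99 and 6.08 CPM on the right. Its counts were low, from 3 to 243 in a library over all 42 libraries, with a mean of 86.9, so that its lowest levels rest on few reads. *Cox7a1* had 2.52, 4.47 and 6.77 CPM on the left against 1.72, 5.52 and 10.5 CPM on the right. *Cox6a2* was higher on the right in 8 of 11 embryos and *Cox7a1* in 7 of 11, and their log2 fold changes were 0.39 (SE 0.26) and 0.22 (SE 0.16), both with an adjusted p of 1.0. Over the 85 members the median was 0.0028, and 53 were positive. Without 2_2 the median was -0.0018 and 38 were positive.

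In mutants with inverted looping, the 2 muscle isoforms of complex IV were higher on the right. *Cox6a2* had 1.76, 1.84, 0.267, 0.827 and 1.15 CPM on the left against 2.48, 6.03, 1.42, 3.04 and 4.79 CPM on the right of 2_7, 4_6, 10_3, 18_2 and 32_2. The right was higher in 5 of 5 embryos, while the ranges of both sides overlapped, with 10_3 the lowest on both. The log2 fold change was 1.66 (SE 0.27, edgeR, adjusted p = 0.0223). *Cox7a1* had 3.86, 5.30, 2.93, 3.78 and 3.23 CPM on the left against 5.67, 10.2, 4.51, 6.14 and 9.27 CPM on the right. It was also higher on the right in 5 of 5, with a log2 fold change of 0.87 (SE 0.16, adjusted p = 0.0367). The exact sign-flip p was 0.063 for each, the smallest that 5 embryos allow.

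These calls were close to the limit in edgeR. *Cox6a2* lost its call without the embryo 4_6, 18_2 or 32_2. Over the 5 fits that each left out an embryo, its adjusted p was 0.00601 to 0.113 and its log2 fold change 1.52 to 1.98. *Cox7a1* lost its call in each of the 5 (adjusted p = 0.0521 to 0.112), at log2 fold changes of 0.71 to 0.95. Neither was called without the pairing of sides (adjusted p = 0.137 and 0.0936). Both were called with the other 2 filters and the other 2 scalings in edgeR, and in DESeq2 (adjusted p = 4.36e-08 and 2.08e-05). DESeq2 called 2 of 85 members in this comparison, beside 7.64% of all genes.

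**Figure D2:**
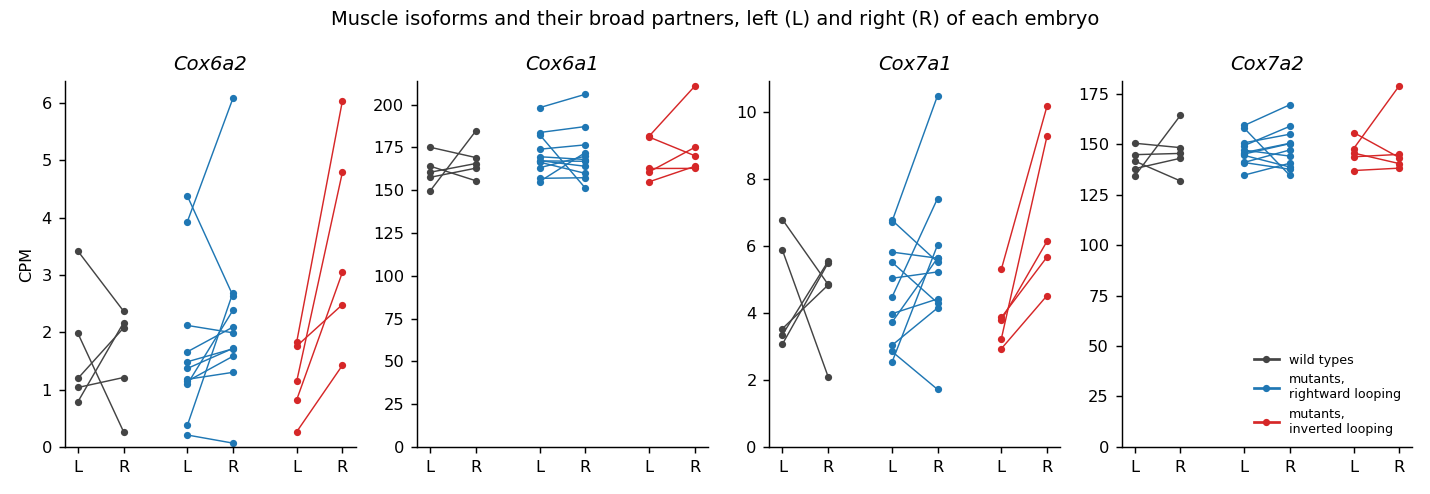
Levels of *Cox6a2*, *Cox6a1*, *Cox7a1* and *Cox7a2* in CPM on both sides of each embryo, by group, with a line joining the 2 sides of an embryo. In mutants with inverted looping all 5 lines run upwards to the right for *Cox6a2* and *Cox7a1*, and in the other groups they run both ways.

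The 2 of 85 members called stood beside 2.04% of all 22960 genes tested, 395 of these called higher and 73 lower on the right. Their broadly expressed partners were not called. *Cox6a1* had 181, 182, 155, 161 and 163 CPM on the left against 170, 211, 164, 175 and 163 CPM on the right, a log2 fold change of 0.075 (SE 0.048, adjusted p = 0.530). *Cox7a2* had 156, 148, 137, 144 and 146 CPM on the left against 143, 179, 138, 145 and 140 CPM on the right, a log2 fold change of 0.035 (SE 0.056, adjusted p = 0.838). *Cox4i1*, *Cox6b1* and *Cox8a* had log2 fold changes of 0.019, 0.080 and 0.054 (adjusted p = 0.886, 0.556 and 0.643).

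A further 3 members had an unadjusted p below 0.05 in mutants with inverted looping, where 2.04% of all genes were called after adjustment. None of the 3 was called. *Cox6b2* had 4.64, 3.23, 3.29, 2.46 and 2.85 CPM on the left against 2.54, 2.82, 2.55, 1.73 and 1.95 CPM on the right, lower on the right in 5 of 5, with a log2 fold change of -0.49 (SE 0.15, adjusted p = 0.157). *Cox4i2* had 12.2, 9.14, 10.8, 9.22 and 9.44 CPM on the left against 14.9, 10.3, 10.6, 12.2 and 12.6 CPM on the right, with 0.26 (SE 0.10, adjusted p = 0.273). *Sdha* had 0.12 (SE 0.039, adjusted p = 0.195). *Ndufa4l2* had 14.5, 8.42, 14.5, 7.84 and 11.2 CPM on the left against 15.6, 8.18, 9.25, 6.09 and 9.98 CPM on the right, so that the right was the lower side in 4 of 5, whereas in wild types it was the higher side in all 5.

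Across the whole module in mutants with inverted looping, the log2 fold changes were small and mostly positive. The median of the 85 members was 0.044, and 79 were positive, beside a median of -0.0050 over all genes, of which 11204 of 22960 were positive. Among the 7491 genes with a mean count of at least 1000, 3675 were positive. Positive values were found in 36 of 39 members of complex I, 4 of 4 of complex II, 8 of 8 of complex III, 13 of 15 of complex IV, 17 of 18 of ATP synthase and in *Cycs*, with medians of 0.042, 0.068, 0.044, 0.039 and 0.049, and 0.015 for *Cycs*. Apart from *Cox6a2* and *Cox7a1*, none of these was called. Scaled by library size alone, 70 were positive, with a median of 0.028. Without the embryo 4_6, 60 were positive, with a median of 0.021, and without 2_7, 80 were positive, with a median of 0.083. Genes of 1 library are not replicates. The embryos themselves were less uniform. The median over the 85 members was positive in 4 of 5 embryos with inverted looping, from -0.098 in 2_7 to 0.15 in 4_6, with a mean of 0.034 ± 0.090 (SD, n = 5). It was 0.018 ± 0.086 in wild types (2 of 5 positive) and 0.0069 ± 0.0456 in mutants with rightward looping (7 of 11 positive).

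**Figure D3:**
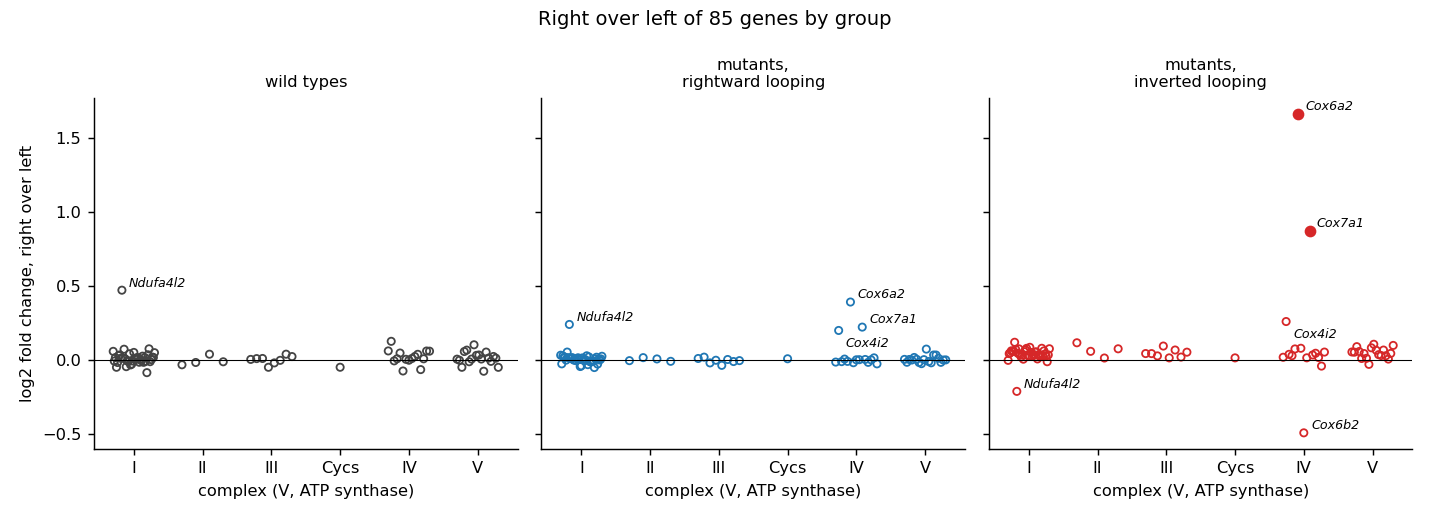
Log2 fold change of right over left from edgeR for each of the 85 members, by complex, in wild types, mutants with rightward looping and mutants with inverted looping. *Cox6a2* and *Cox7a1* stand apart at 1.66 and 0.87 in mutants with inverted looping, and most other members lie close to 0 in all 3 groups. Filled points were called.

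The difference in asymmetry between groups was then tested as an interaction of side and group over all 42 libraries. Comparing mutants with inverted looping and wild types, 0 of 85 members were called by edgeR, beside 0.513% of 26335 genes, and 5 members had an unadjusted p below 0.05. DESeq2 called 2 members, *Cox6a2* and *Ndufa4l2*, or 2 of 85 where it called 3.46% of all genes. *Ndufa4l2* had a difference of -0.70 in log2 ratio (SE 0.17, edgeR, adjusted p = 0.0602), and it was called in edgeR with at least 10 counts required in every library (adjusted p = 0.0425), and also without the wild type 22_4 (-0.794, adjusted p = 0.0169) or the inverted mutant 2_7 (-0.774, adjusted p = 0.0386). It was called in no other fit that left out an embryo. *Cox6a2* differed by 1.72 (SE 0.63, adjusted p = 0.218) and *Cox7a1* by 0.83 (SE 0.39, adjusted p = 0.345). *Atp5f1c*, the gamma subunit of ATP synthase, and *Sdha* had differences of 0.12 and 0.13 (adjusted p = 0.332 and 0.364).

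Comparing mutants with inverted and rightward looping, 0 members were called by edgeR, beside 0.311% of genes, with 3 at an unadjusted p below 0.05, and DESeq2 called 0. The 3 were *Ndufa4l2* at -0.46 (SE 0.14, adjusted p = 0.190), *Cox6b2* at -0.51 (SE 0.21, adjusted p = 0.393) and *Cox6a2* at 1.27 (SE 0.53, adjusted p = 0.393). *Cox7a1* had 0.64 (SE 0.33, adjusted p = 0.508). The asymmetry of the muscle isoforms in mutants with inverted looping was thus not shown to differ from that of either other group in edgeR. Comparing mutants with rightward looping and wild types, 0 members were called, 0 had an unadjusted p below 0.05, DESeq2 called 0, and 0% of genes were called. *Ndufa4l2* had the lowest p there, at -0.23 (SE 0.14, adjusted p = 1.0), followed by *Atp5mc2* at -0.13 and *Cox8a* at -0.09. These 3 comparisons share libraries.

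**Figure D4:**
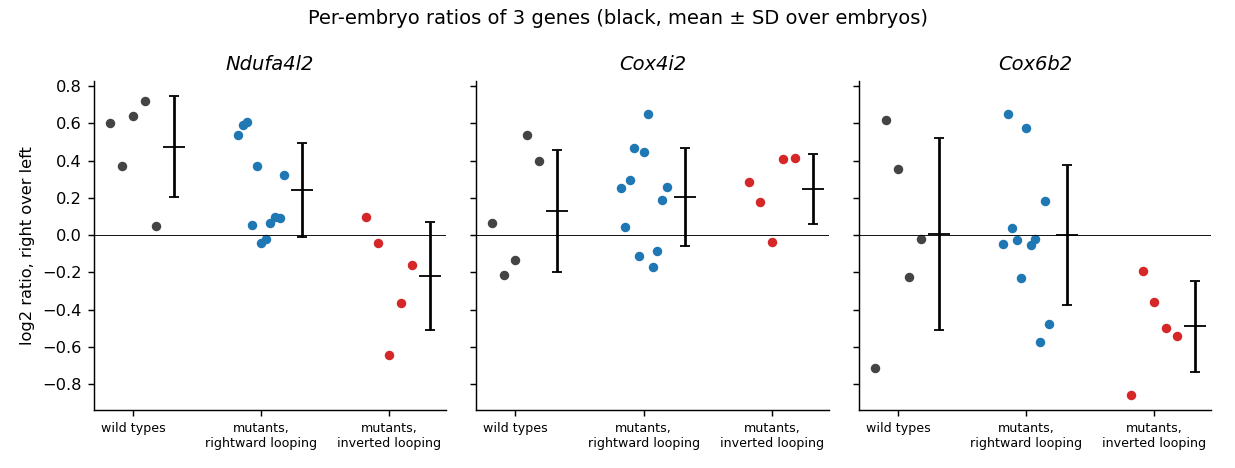
Log2 ratio of right over left per embryo for *Ndufa4l2*, *Cox4i2* and *Cox6b2*, by group, with the mean and SD. *Ndufa4l2* is above 0 in all 5 wild types and below 0 in 4 of 5 mutants with inverted looping, and *Cox6b2* is below 0 in all 5 of the latter.

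Markers of heart tube muscle moved with the muscle isoforms. Of 16 such genes, 13 were called higher on the right of mutants with inverted looping, with a median log2 fold change of 1.10 over the 16. Those not called were *Myh7*, *Nppa* and *Pln*, and *Pln* had at most 0.951 CPM in any library. The summed level of the 16 genes was 1466, 2190 and 2877 CPM (lowest, median, highest) on the left and 2814, 5091 and 6048 CPM on the right, higher on the right in 5 of 5 embryos. In wild types it was 2147, 2564 and 5408 CPM on the left against 1026, 3302 and 4406 CPM on the right, and in mutants with rightward looping 1290, 3172 and 5807 CPM and 363, 3794 and 6367 CPM. *Cox6a2* and *Cox7a1* are also known from skeletal muscle, and 5 markers of that type were measured. Their highest levels in any library were 16.02 CPM for *Myf5*, 2.97 for *Myog*, 0.821 for *Myf6*, 0.459 for *Myod1* and 0.114 for *Ckm*, and *Myog*, *Myf6*, *Myod1* and *Ckm* were at 0 in 8, 4, 18 and 19 of 42 libraries. The summed level of the 5 in mutants with inverted looping was 0.333, 6.73 and 10.5 CPM (lowest, median, highest) on the left against 0.147, 0.905 and 2.46 CPM on the right, and it was higher on the right in 0 of 5 embryos. Of 3 tested there, edgeR called *Myf5* and DESeq2 called 2, all lower on the right. The part of muscle content in the difference between the sides was not tested.

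Embryo by embryo, the ratios followed each other. The log2 ratio of *Cox6a2* and the mean log2 ratio of the 16 muscle genes had a Pearson r of 0.93 and a Spearman rho of 0.91 over 21 embryos, and *Cox7a1* had 0.93 and 0.91 (permutation p = 1e-05 each, the smallest that 100000 resamples can give, adjusted p = 2e-05). Without the 2 embryos farthest from the median, 10_1 and 2_2, r was 0.90 and 0.89. These embryos come from 3 groups, so the relation was also taken within the 11 mutants with rightward looping. There r was 0.91 for *Cox6a2* (permutation p = 0.00058) with rho 0.71 (p = 0.0176), and 0.91 for *Cox7a1* (p = 0.00013) with rho 0.88 (p = 0.00069). Without 2_2 and 19_4, r fell to 0.637 for *Cox6a2* (permutation p = 0.0605, rho 0.467), so that this relation rested on those embryos, and to 0.81 for *Cox7a1* (permutation p = 0.0109, rho 0.78). The groups of 5 are too small for a correlation. The ratios of a library pair share its depth and its scaling.

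**Figure D5:**
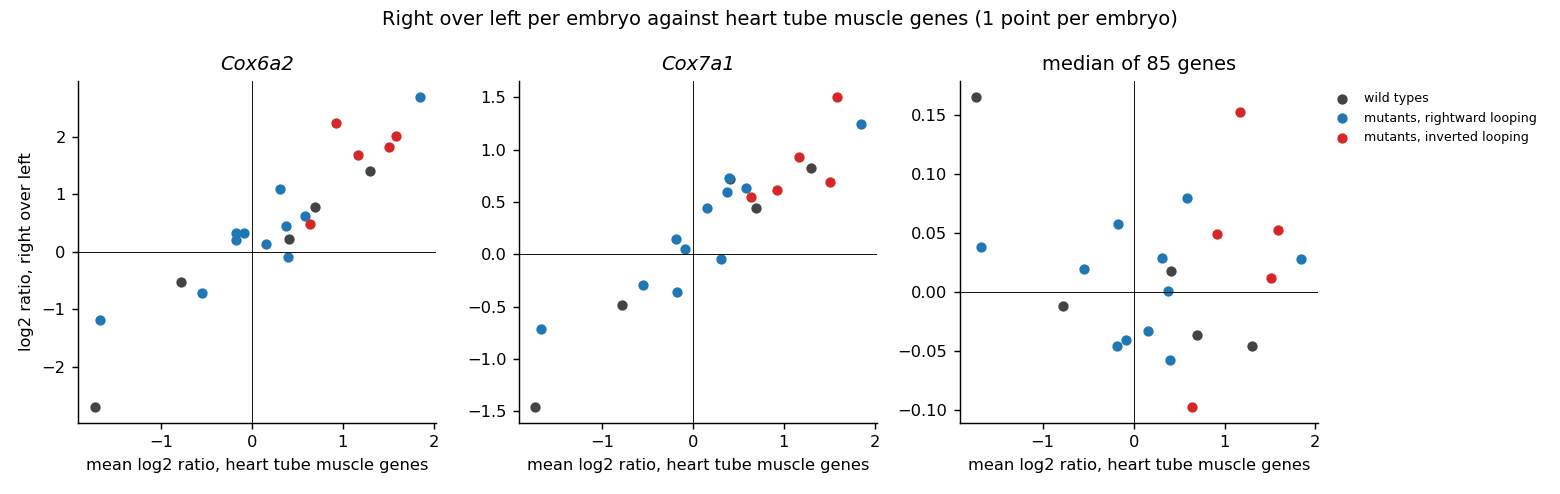
Log2 ratio of right over left per embryo of *Cox6a2*, *Cox7a1* and the median of the 85 members against the mean log2 ratio of 16 heart tube muscle genes, by group. The 2 isoforms follow the muscle genes with an r of 0.93 over 21 embryos, and the median of the 85 members stays between -0.098 and 0.17.

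Other tissues also differed between the sides of mutants with inverted looping. Of 6 neural tube markers, *Pax6*, *Nkx6-1* and *Olig2* were called lower on the right, the 6 had a median of -1.61, and their summed level was 51.8 to 90.1 CPM on the left against 11.5 to 49.96 CPM on the right. Among 8 markers of the second heart field, the progenitors that are added to the tube, *Mef2c* was the 1 called by edgeR, higher on the right. Among markers of blood, endothelium, foregut or visceral endoderm, paraxial mesoderm, neural crest and dividing cells, edgeR called 0 there. DESeq2 called 6 neural tube markers lower, 14 of the heart tube muscle genes higher and 3 markers of the second heart field, 2 higher and 1 lower, where it called 7.64% of all genes. By summed level, 6 paraxial mesoderm markers were lower on the right in 5 of 5 embryos, with 138 to 207 CPM on the left against 76.4 to 137 CPM on the right and 4 of 6 at an unadjusted p below 0.05. The 6 endothelium markers were higher on the right in 5 of 5, with 327 to 388 CPM on the left against 371 to 435 CPM on the right and 3 of 6 at an unadjusted p below 0.05. DESeq2 called 2 of endothelium and 1 of foregut higher, 1 each of neural crest, paraxial mesoderm and dividing cells lower, and 0 of blood or visceral endoderm. The part of these tissues in the values of the members was not tested.

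Further genes of mitochondria and energy supply were taken from lists. Of 14 regulators of mitochondrial biogenesis, 2 were called higher on the right in mutants with inverted looping, beside 2.04% of all genes called. The list had a median of -0.018. *Ppargc1a*, the coactivator PGC-1alpha, had 5.26, 9.93, 3.49, 6.24 and 5.71 CPM on the left against 9.66, 15.9, 9.77, 13.4 and 11.5 CPM on the right, with a log2 fold change of 1.03 (SE 0.13, adjusted p = 0.0101). *Esrrg*, a nuclear receptor that works with it, had 13.6, 15.1, 12.3, 17.4 and 15.3 CPM on the left against 21.7, 24.5, 17.2, 25.05 and 21.7 CPM on the right, with 0.59 (SE 0.075, adjusted p = 0.0101). Both were higher on the right in 5 of 5 embryos, and the ranges of both sides overlapped narrowly. Both were called in each of the 5 fits that left out an embryo (adjusted p = 0.0137 to 0.0464 for *Ppargc1a* and 0.0189 to 0.0497 for *Esrrg*). Without the pairing of sides, *Ppargc1a* was not called (adjusted p = 0.0754).

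For *Ppargc1a* the difference in asymmetry itself passed the test. It was 1.37 against wild types (SE 0.31, adjusted p = 0.0416) and 1.27 against mutants with rightward looping (SE 0.26, adjusted p = 0.0317). Neither was called among males alone (adjusted p = 0.284 and 0.296). Over 21 fits that each left out 1 embryo, the first had an adjusted p of 0.0156 to 0.154 at differences of 1.17 to 1.54, and it was lost in 11, those without the inverted mutants 10_3, 18_2, 32_2 or 4_6, the rightward mutants 17_1, 19_6, 22_1 or 23_3, or the wild types 10_1, 7_1 or 8_1. The second had an adjusted p of 0.00772 to 0.119 at 1.16 to 1.37, and it was lost in 10, those without any 1 of the 5 inverted mutants or without the rightward mutants 17_1, 18_1, 19_6, 23_3 or 3_7. For *Esrrg* it was 0.36 and 0.45 (adjusted p = 0.612 and 0.490). *Etfa*, a subunit of the electron transfer flavoprotein that feeds electrons from fatty acid oxidation to ubiquinone, was the 1 gene that edgeR called of 10 in the list of other respiratory chain proteins and carriers. DESeq2 called 3 of the 10 higher on the right in mutants with inverted looping, where it called 7.64% of all genes. It called 3 of the 10 for the difference in asymmetry from wild types, beside 3.46% of all genes. *Etfa* had 89.2, 92.4, 80.9, 93.7 and 88.1 CPM on the left against 104, 118, 107, 121 and 125 CPM on the right, which did not overlap, with a log2 fold change of 0.38 (SE 0.051, adjusted p = 0.0120, and 0.0558 without 32_2). Its difference in asymmetry was 0.57 against wild types (SE 0.10, adjusted p = 0.0123) and 0.40 against mutants with rightward looping (SE 0.085, adjusted p = 0.0360). Of 21 fits that each left out 1 embryo, the first lost its call in 1, that without 32_2 (adjusted p = 0.0508). The second lost it in 11 (adjusted p up to 0.175), those without the inverted mutants 10_3, 18_2, 32_2 or 4_6, the rightward mutants 17_1, 18_1, 19_6, 23_3, 2_2 or 3_7, or the wild type 7_1. Neither was called among males alone (adjusted p = 0.272 and 0.374). Heart tube muscle genes were mostly higher on the right in mutants with inverted looping as well. DESeq2 called 3 of 16 of them higher for the difference in asymmetry from wild types, beside 3.46% of all genes. The part of muscle content in the values of *Ppargc1a*, *Esrrg* and *Etfa* was not tested.

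The other lists stayed below the threshold in edgeR in this comparison. Of 44 assembly factors, which help to build the complexes, 0 were called by edgeR or DESeq2, with 2 at an unadjusted p below 0.05 and a median of 0.013. Of 12 genes of the mitochondrial genome that were tested, 0 were called by either tool, with 1 at an unadjusted p below 0.05 and a median of 0.040. These transcripts were captured by poly(A) selection. Of the 12, *mt-Co2*, *mt-Atp6*, *mt-Co3* and *mt-Nd4l* were barely counted, with median levels of 0.377, 0.781, 0.749 and 0.245 CPM, and *mt-Atp8*, at 0.120 CPM, did not pass the filter. The other 8 had medians of 5.13 CPM (*mt-Nd3*) to 1840 CPM (*mt-Cytb*), and their log2 fold changes were -0.16 (*mt-Nd3*) to 0.11 (*mt-Nd4*). Of 13 glycolysis genes, edgeR called 0 and DESeq2 called 1, lower, with 6 lower on the right at an unadjusted p below 0.05 and a median of -0.094. In wild types and in mutants with rightward looping, 12 and 13 of these 13 had positive values, with medians of 0.14 and 0.051, beside 11729 of 23182 and 10789 of 22795 over all genes. By embryo, the median over the 13 was positive in 4 of 5 wild types (-0.073 to 0.434), 6 of 11 mutants with rightward looping (-0.105 to 0.246) and 1 of 5 mutants with inverted looping (-0.237 to 0.046).

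Levels were also compared between groups within each side, with sex as a covariate. On the left, 0 members were called between mutants with inverted looping and wild types, between mutants with rightward looping and wild types and between both mutant groups, beside 0.0282%, 0.0242% and 0.0121% of 24838 genes. The members at an unadjusted p below 0.05 in edgeR were 1, *Ndufs4* at -0.13, in the first, 3 in the second, which were *Cox8a* at 0.12, *Ndufs6* at 0.087 and *Atp5f1c* at -0.087, and 0 in the third. On the right, 0 members were called in the same 3 comparisons, beside 0%, 0.0121% and 0.00805% of 24859 genes, with 1, 0 and 0 at an unadjusted p below 0.05. DESeq2 called 0 members in all 6.

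The 1 member on the right was *Ndufa4l2*, at a log2 fold change of -0.69 between mutants with inverted looping and wild types (SE 0.30, adjusted p = 0.812). *Cox6a2* and *Cox7a1* had log2 fold changes of 1.05 and 0.55 there (adjusted p = 0.853 for each). The medians over the 85 members were between -0.0066 and 0.0260 in the 6 comparisons.

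Between the sexes, 0 members were called on either side, beside 0.0564% of genes on the left and 0.0523% on the right, and DESeq2 called 0. On the left, 13 members had an unadjusted p below 0.05 in edgeR, all 13 higher in females, and on the right 0 had. That is 15.3% of the 85 on the left, beside 7.31% of all genes there and 5.66% on the right. The 3 with the lowest p were *Uqcrfs1*, the Rieske protein of complex III, at 0.083 (SE 0.031), *Atp5f1b* at 0.080 and *Cox6a2* at 1.01 (SE 0.38), each with an adjusted p of 0.619. The median of the members was 0.037 on the left and 0.010 on the right. Of 16 heart tube muscle markers, 0 were called on the left by edgeR or DESeq2, with 13 higher in females at an unadjusted p below 0.05 in edgeR and a median of 0.54, and their part was not tested. Of the members on chromosome X, *Cox7b*, *Ndufa1* and *Ndufb11* had log2 fold changes of 0.044, -0.0078 and 0.055 on the left and -0.029, 0.0037 and 0.025 on the right, with adjusted p of 0.809 or more.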

How the data were processed

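Bulk RNA sequencing covered the left and right heart field of 21 embryos, 42 libraries with 36073684 to 62970327 counts each. The authors prepared poly(A) libraries from low-input RNA, aligned reads with STAR (GRCm39) and obtained gene counts from featureCounts (Subread 2.0.6), and the deposited values are raw counts, checked to be whole numbers, for 56953 Ensembl genes. Strand use and the handling of shared reads are not given in the sources used here, so that counts of overlapping genes, and of members with near-identical pseudogenes or copies such as *Ndufb11b*, are uncertain. Symbols, positions and exon lengths came from GENCODE on GRCm39, which held 56310 of the identifiers, and promoter sequences from the GRCm39 reference. No gene row was left out of library sizes, and 19 rows of other biotypes, 1 pseudogene symbol and 8 Ndufaf genes were left out of the members.

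Groups, sides, sexes and embryos came from the sample labels. The laterality clusters of the study are in no label and were not used here. Members and gene lists were chosen with earlier results of these data known.

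Counts were normalized by TMM and tested with edgeR's quasi-likelihood test (R 4.3.3, edgeR 4.0.16) after filterByExpr (a minimum count of 5, a total of 10, large.n of 50 and min.prop of 0.2). P-values were adjusted by Benjamini-Hochberg over all genes tested, and a gene was called below 0.05. Counts of members at an unadjusted p below 0.05 were given with the share of all genes between the sexes alone. Elsewhere they are not a result about the members. Right over left was fitted within each group with a block for the embryo. Differences of asymmetry were fitted as interactions over all 42 libraries, and levels within each side with sex as a covariate. There were 14 comparisons in all. The pairing came from the embryo in the labels. Residuals of both sides of an embryo correlated at -0.085 to 0.75 (median 0.31, 2000 most variable genes), and 29 of 42 libraries were closest to their own pair. No library was a copy of another (lowest chi-square per gene 6.82). CPM were scaled by TMM-corrected library totals, and per-embryo log2 ratios used a prior count of 2, with two-sided exact sign-flip tests, unadjusted. Tests were also run on simulated counts with a known change. These held no effect of the embryo, so that the use of the pairing was not checked by them.

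The genes named were all isoforms of complex IV, *Cox7a2l*, complex II, *Cycs*, the highest and lowest member per length in each complex, members on chromosome X and, per comparison, up to 8 called members or the 3 with the lowest p. Genes of other lists were named after their values were seen. Alternatives were DESeq2 1.42.0, its size factors in edgeR, library size alone, no filter, at least 10 counts in every library, no replicate block, no sex term, males alone, a prior count of 0.5, the longest transcript and each embryo left out. The canonical transcript length, and the shares of isoforms by other lengths, were chosen after seeing the data.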

Additional observations from a re-analysis of the deposited data

Results flagged for a closer look

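In groups of 5 embryos, the log2 ratio of right over left of each named member was searched for an embryo far from the other 4, and 5 of 74 such groups held one. Chance alone gives about 1 in 20. In wild types these were *Cox7c* (0.317), *Ndufa1* (0.234), *Ndufs6* (0.245) and *Uqcrfs1* (0.194), all in the embryo 10_1 and all higher on the right. The same embryo had the highest median over the 85 members in its group, 0.17, and the lowest mean log2 ratio of heart tube muscle genes, -1.73, and the part of muscle content in these values was not tested. In mutants with inverted looping it was *Cox7a2l*, a factor that joins complexes III and IV into supercomplexes, at -0.115 in the embryo 2_7. That embryo also had the lowest median over the 85 members in its group, -0.098.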

How the results depend on the processing

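Where not stated, the cause of a change was not tested. In mutants with inverted looping, 2 members were called between the sides, against 0 without the replicate block (*Cox6a2* 1.60, adjusted p = 0.137, and *Cox7a1* 0.91, adjusted p = 0.0936) and 0 (without 4_6, 18_2 or 32_2) to 1 (without 2_7 or 10_3) when an embryo was left out. Between mutants with inverted looping and wild types, the difference of asymmetry was called in 0 members by edgeR, 2 by DESeq2 (*Cox6a2* 1.78, adjusted p = 0.0461, and *Ndufa4l2* -0.69, adjusted p = 0.00468), 1 with at least 10 counts in every library and 0 to 1 when an embryo was left out. The correlation of *Cox6a2* with muscle genes in mutants with rightward looping fell from 0.91 to 0.637 without 2_2 and 19_4. In wild types the log2 fold change of *Cox6a2* turned without 8_1 or 10_1 (range -0.457 to 0.456) and that of *Cox7a1* without 7_1, 17_7 or 22_4 (-0.185 to 0.379). The interactions of *Ppargc1a* and *Etfa* were lost among males alone (adjusted p = 0.272 to 0.374) and without the pairing (0.145 to 0.642), and by library size alone for *Ppargc1a* against wild types (0.0575) and *Etfa* against rightward looping (0.0510). All other settings for the 85 members' median and the number called gave a value within the spread or the same count.

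The number of all genes called moved more. For right over left it was 468 in mutants with inverted looping, against 1755 by DESeq2, 942 without a filter, 305 without the block and 138 (without 32_2) to 446 (without 10_3) by leaving out an embryo. It was 0 in wild types, against 20 by DESeq2 and 2 without a filter, and 6 in mutants with rightward looping, against 32 by DESeq2 and 1 without the block. For the difference in asymmetry it was 135 between mutants with inverted looping and wild types, against 911 by DESeq2, 207 without a filter, 3 in males alone, 7 without the block and 17 (without 32_2) to 641 (without 22_4), and 82 between both mutant groups, against 456, 131, 7, 17 and 18 (without 18_2) to 192 (without 10_1). Leaving out an embryo gave 2 to 8 in mutants with rightward looping. For levels on the left it was 7 between mutants with inverted looping and wild types (78 by DESeq2, 1 in males, 3 without a sex term), 6 between mutants with rightward looping and wild types (20 by DESeq2, 11 without a filter, 3 with at least 10 counts, 0 in males), 3 between both mutant groups (104 by DESeq2, 1 in males) and 14 between the sexes (34 by DESeq2, 6 with at least 10 counts). On the right the same comparisons gave 0 (17 by DESeq2, 1 with at least 10 counts), 3 (6 by DESeq2, 8 without a filter, 0 in males), 2 (18 by DESeq2, 4 with at least 10 counts, 0 in males or without a sex term) and 13 (30 by DESeq2, 6 with at least 10 counts). Over these 8 comparisons, leaving out an embryo gave 0 to 15. With 5 embryos in a group, small differences of single members may have been missed, and the limit of detection was not measured.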

Other observations

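Values of the glycolysis list were also compared between the sides. It holds enzymes of the route that makes ATP without oxygen, together with *Slc2a1* and *Pdk1*. Right over left, edgeR called 0 of 13 and DESeq2 called 1 in mutants with inverted looping, where DESeq2 called 7.64% of all genes. *Gapdh* had a log2 fold change of right over left of -0.13 there (SE 0.038, edgeR, adjusted p = 0.163), 0.0095 in mutants with rightward looping and 0.12 in wild types. *Ldha*, lactate dehydrogenase, had -0.14 (SE 0.055, adjusted p = 0.268), 0.077 and 0.17 in the same order. For the difference in asymmetry between mutants with inverted looping and wild types, edgeR called 0 of 13 glycolysis genes. DESeq2 called 2, beside 3.46% of all genes. In edgeR, 10 had an unadjusted p below 0.05, all 10 lower, and the median was -0.26, beside -0.022 over all genes. *Gapdh* had -0.26 (SE 0.086, adjusted p = 0.164) and *Ldha* -0.33 (SE 0.12, adjusted p = 0.209). Against mutants with rightward looping the median was -0.15, with 0 of 13 called by either tool and 5 at an unadjusted p below 0.05 in edgeR. *Gapdh* and *Ldha* were named after their values were seen.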
